A study of Mus musculus with 4 samples.

Results

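The SOCS family comprises 8 genes in the mouse, Cish and Socs1 to Socs7, and all 8 were found by symbol among the 35798 genes named in the count table. The rule for a member is its symbol. Each member had enough counts to be tested. Cish and Socs1 were lower in TNFR2 KO than in wild-type libraries of cells sorted as Ly49H+ on D3.5 of MCMV infection. Their log2-fold changes were -0.49 and -0.47. Socs2 had one of -0.25, a call that was lost whenever a library was left out. The other 5 members did not pass the test under the main scaling, and all 8 were called lower with scaling on NK cell genes. Socs3 had overlapping levels, with means of 114.9 ± 5.84 CPM for the wild-type and 113.8 ± 2.77 CPM for the TNFR2 KO (SD, n = 2 each). Macrophage, neutrophil and basophil markers were mostly lower in TNFR2 KO too, and their part in these results was not tested.

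SOCS proteins are feedback inhibitors of cytokine receptors that signal through JAK kinases and STAT transcription factors. Cytokine binding activates the kinases, the STATs enter the nucleus and switch on several SOCS genes, and the new proteins then bind the receptor or the kinase and shut the signal down. All members carry an SH2 domain, which binds phosphorylated tyrosine, and a SOCS box, which recruits an elongin and cullin ubiquitin ligase. In NK cells CIS, the protein of Cish, is known as a brake on IL-15 signalling, and SOCS1 restrains responses to interferons and to cytokines of the common gamma chain.

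The study asked how loss of TNFR2, a receptor for TNFα, alters gene expression of NK cells during infection with mouse cytomegalovirus (MCMV). Wild-type NK cells carrying CD45.1 and TNFR2 KO NK cells carrying CD45.2 were transferred together into NSG mice, which lack T, B and NK cells of their own but keep myeloid cells. The hosts were infected a day later, and Ly49H+ cells of each CD45 type were sorted from spleen on D3.5, Ly49H being the receptor that recognises an MCMV protein. Each genotype had 2 libraries made from spleens pooled from 3 hosts, and per the sample descriptions the wild-type and TNFR2 KO libraries sharing a number shared a pooled spleen sample. Whether the pooled samples of the duplicates held different mice is not stated. Ages of the mice were not among the labels used here. Because genotype, CD45 allele and sort gate change together, their effects cannot be told apart. NSG mice derive from the NOD strain, whose blood cells also carry CD45.1. The study describes 1 experiment in duplicate, so the spread between duplicates may be technical and p-values measure that spread alone. Levels are given as CPM, the share of a library's counts on the usual per-million scale after TMM scaling, and a log2-fold change compares TNFR2 KO with wild-type, so that it is negative where the KO was lower.

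The promoters of the members that carry the contrast of the results, the lower Cish and Socs1 and the overlapping Socs3, are shown with the letters that STAT and interferon-activated factors are known to prefer. RefSeq sequences of the GRCm38.p6 build (mm10) were at hand for 4 of the 8 members, these 3 and Socs4, and run from 250 bases before to 50 bases after the RefSeq start of the gene. Capitals mark matches to the STAT motif TTCNNNGAA or to the interferon response motif GAAANNGAA, each searched on both strands. The Cish promoter lies on the plus strand at chr9:107296409-107296708, and those of Socs1 and Socs3 lie on the minus strand at chr16:10785487-10785786 and chr11:117969317-117969616. The GENCODE spans given below for Cish and Socs3 begin further upstream, so that both windows lie inside them. Motif positions count from the RefSeq start.
Cish: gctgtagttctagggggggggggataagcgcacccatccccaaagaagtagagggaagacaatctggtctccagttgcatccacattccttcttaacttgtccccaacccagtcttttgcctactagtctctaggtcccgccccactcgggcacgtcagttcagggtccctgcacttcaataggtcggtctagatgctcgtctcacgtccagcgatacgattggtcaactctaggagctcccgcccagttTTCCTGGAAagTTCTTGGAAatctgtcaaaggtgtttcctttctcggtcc
Socs1: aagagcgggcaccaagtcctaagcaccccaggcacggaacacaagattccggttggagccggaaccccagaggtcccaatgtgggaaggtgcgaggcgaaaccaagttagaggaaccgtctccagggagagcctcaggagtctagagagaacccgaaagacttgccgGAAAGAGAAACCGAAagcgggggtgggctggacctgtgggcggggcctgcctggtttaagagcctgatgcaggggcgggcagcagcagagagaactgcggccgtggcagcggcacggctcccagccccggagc
Socs3: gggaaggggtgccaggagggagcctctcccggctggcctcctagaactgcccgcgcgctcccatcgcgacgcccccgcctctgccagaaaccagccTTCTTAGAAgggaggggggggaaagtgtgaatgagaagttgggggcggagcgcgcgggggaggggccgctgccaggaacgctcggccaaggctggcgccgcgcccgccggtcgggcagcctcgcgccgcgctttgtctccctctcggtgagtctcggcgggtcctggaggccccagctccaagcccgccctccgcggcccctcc

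The Cish promoter held 2 STAT motifs, TTCCTGGAA at the start base itself and TTCTTGGAA 11 bases further on (position 12). Among 32851 mouse promoters of the same 300 bases, 8.30% held at least 1 such motif and 0.457% held 2 or more. The Socs3 promoter held 1, TTCTTAGAA, beginning 154 bases before the start (position -154). The Socs1 promoter held no STAT motif but 2 overlapping interferon response motifs, GAAAGAGAA and GAAACCGAA, at positions -83 and -77. Of all promoters, 8.56% held at least 1 interferon response motif and 0.624% held 2 or more. The Socs4 window held neither. The kappaB motif, the binding letters of NF-kB, was searched by name as well and had no match in the 4 windows, against a share of 8.46% among all promoters. These matches describe the letters in the windows and are not evidence of binding.

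The libraries held 32713256 to 39543650 counts, and 13822 genes passed the filter on low counts. Tnfrsf1b, the gene targeted in the KO, had 264.6 and 268.5 CPM for wild-type against 55.1 and 58.6 CPM for TNFR2 KO (log2-fold change -2.23, standard error 0.0352, edgeR adjusted p = 1.35e-13). The NK cell markers Ncr1 and Klrb1c were present in every library, and 41 of 44 NK cell markers tested were higher in TNFR2 KO relative to all genes, their sum under TMM scaling rising from 20845 and 20982 CPM to 37157 and 37520 CPM. Markers of most other cell types moved the opposite way. Of 28 macrophage or monocyte markers 27 were lower and 1, Ccr2, was higher, with sums of 2785 and 2799 CPM in wild-type and 1021 and 1047 CPM in TNFR2 KO. All 17 neutrophil or granulocyte precursor markers tested were lower (1072 and 1089 against 107.5 and 112.1 CPM), as were all 11 basophil or mast cell markers (1382 and 1390 against 109.0 and 109.2 CPM) and 7 of 11 dendritic cell or class II markers (1768 and 1805 against 154.7 and 156.2 CPM). Their defining genes were present in TNFR2 KO at a lower level, Csf1r at 26.6 and 27.4 CPM, Mpo at 3.93 and 3.98 CPM and Mcpt8 at 5.97 and 6.86 CPM, while Flt3 was under 1 CPM in every library. The 9 erythroid markers tested were lower, at 279.3 and 285.5 against 63.6 and 66.9 CPM. The 10 T cell markers summed to 1462 and 1455 CPM against 1331 and 1362 CPM, 6 of them lower and 2 higher. Of all genes tested, 26.2% were called lower and 24.2% higher, the shares to set beside these counts. The markers with the highest CPM of their lists had log2-fold changes of 1.08 (Gzma, NK cell), 0.78 (Ccr2), -6.50 (Mpo), -6.18 (Prss34, basophil), -3.57 (Cd74, class II), -2.39 (Hba-a1, erythroid), -0.024 (Trbc2, T cell) and 0.33 (Ighm, B cell). The B cell marker Ms4a1 was at 0.218 CPM or less. These shifts ran along with every comparison given here, and their part in the SOCS results was not tested. In bulk RNA, fewer cells of a type and less RNA per cell cannot be told apart.

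**Figure D1:**
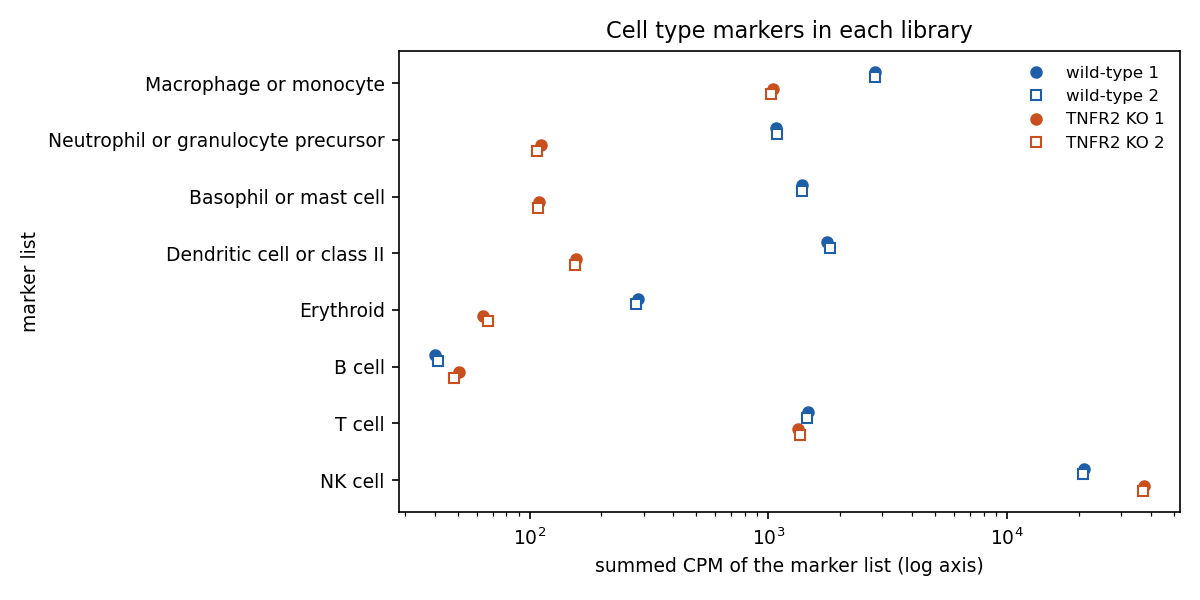
Summed CPM of each marker list (log x axis) in the 4 libraries, with wild-type in blue and TNFR2 KO in orange and circles and squares for the first and second library of each genotype. Under TMM scaling the NK cell sum was higher and the macrophage, neutrophil, basophil, dendritic cell and erythroid sums were lower in both TNFR2 KO libraries.

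Levels of different genes were compared per kilobase of the principal GENCODE transcript. On that scale Socs3 stood highest in wild-type, at 43.4 and 46.6 CPM per kb. Socs1 followed at 23.5 and 23.3 CPM per kb and Cish at 19.98 and 20.16 CPM per kb. The other members were lower, with Socs4 at 8.46 CPM per kb on average, Socs7 at 5.93, Socs2 at 5.54, Socs5 at 3.41 and Socs6 at 3.24 CPM per kb. The order was the same in TNFR2 KO, where Socs3 averaged 44.6, Socs1 16.9, Cish 14.4 and Socs6 2.96 CPM per kb. No neighbours in this order overlapped between libraries of a genotype. In wild-type the gaps from Socs7 to Socs2 and from Socs5 to Socs6 were close in size to the largest counting errors of Socs2 and Socs5. Those errors, 5.44% and 4.39%, belong to a TNFR2 KO library, where the counts of both genes were lowest. The gaps were wider in TNFR2 KO, where Socs7 averaged 6.20 and Socs2 4.67 CPM per kb. Socs5 averaged 3.49 CPM per kb there, beside the 2.96 of Socs6.

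**Figure D2:**
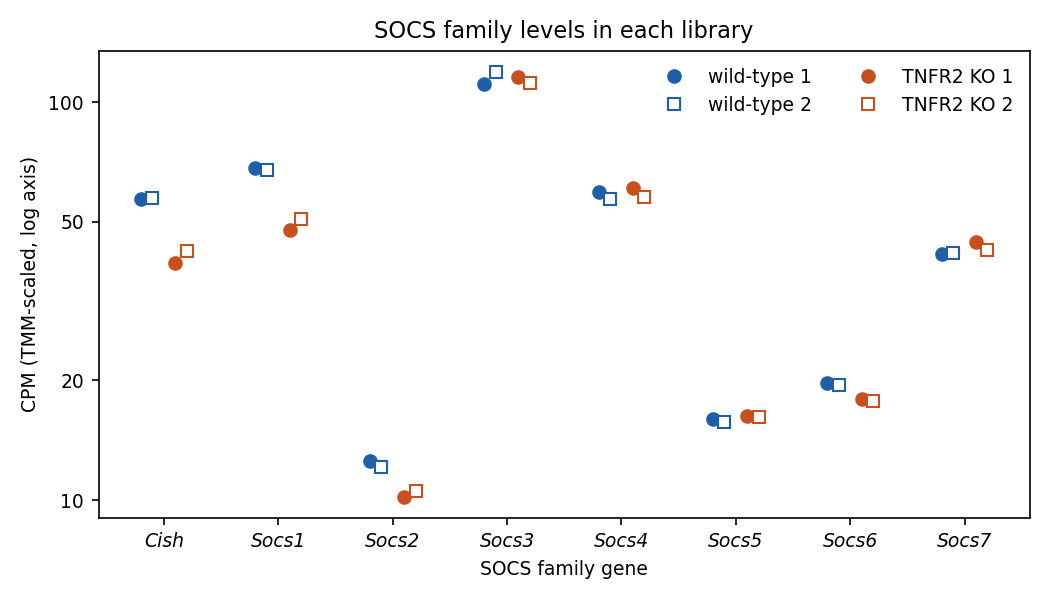
CPM of each SOCS family gene (log y axis) in each library, with wild-type in blue and TNFR2 KO in orange and circles and squares for the first and second library of each genotype. Cish, Socs1, Socs2 and Socs6 had both TNFR2 KO libraries below both wild-type libraries, Socs5 and Socs7 had both above, and Socs3 and Socs4 overlapped.

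Cish (GRCm38 chromosome 9, 107296026 to 107302784, plus strand) was measured at 57.0 and 57.5 CPM in wild-type. It was at 39.5 and 42.4 CPM in TNFR2 KO, so that both lay under both wild-type values. The means were 57.2 ± 0.353 and 40.9 ± 2.04 CPM (SD, n = 2 each), a ratio of 0.715. The edgeR quasi-likelihood test gave a log2-fold change of -0.49 (standard error 0.0489, 95% interval -0.59 to -0.38, adjusted p = 4.31e-06). Between the libraries numbered 1 the change was -0.53, and between those numbered 2 it was -0.44. With scaling on NK cell genes it was -1.29, or -0.48 relative to the median of all genes under that scaling. Of the 31-base stretches of Cish, 10.4% are shared with other genes, namely Madd and the overlapping antisense genes Gm17040 and Gm17041. Gm17040 was at 0.108 CPM or less in every library, and Gm17041 was not among the genes in the table.

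Socs1 (chromosome 16, 10782240 to 10785536, minus strand) encodes a direct inhibitor of JAK kinases. It was at 68.3 and 67.6 CPM in wild-type and at 47.7 and 50.8 CPM in TNFR2 KO, again without overlap. The log2-fold change was -0.47 (standard error 0.0450, 95% interval -0.57 to -0.37, edgeR adjusted p = 2.9e-06) and the ratio of means 0.725. Taken by library number, the change was -0.52 and -0.41. The ratio of Cish to Socs1 counts, which does not depend on how libraries are scaled, was 0.833 and 0.849 in wild-type and 0.828 and 0.834 in TNFR2 KO. These values overlapped, so that no difference between the falls of Cish and Socs1 could be seen beyond the spread of the libraries.

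Socs2 (chromosome 10, 95385362 to 95417180, minus strand) is best known as a brake on growth hormone signalling. Its level was 12.5 and 12.1 CPM for wild-type against 10.2 and 10.5 CPM for TNFR2 KO, without overlap. By library number its change was -0.29 and -0.20. The log2-fold change was -0.25 (standard error 0.0964, 95% interval -0.46 to -0.038), and the edgeR adjusted p of 0.0492 lay just inside the threshold of 0.05. DESeq2 gave an adjusted p of 0.197, and with any 1 of the 4 libraries left out the edgeR adjusted p ran from 0.0777 to 0.230. Counting alone gave an error of up to 5.44% for this gene.

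Together these were 3 of 8 members called lower at an adjusted p under 0.05, against 26.2% of all 13822 genes tested. No member was called higher, against 24.2%. No member passed a log2-fold change of 1 as well, a threshold that 11.8% of genes passed downwards and 1.56% upwards. The libraries of the genotypes did not overlap for 4 members with TNFR2 KO lower (37.7% of all genes) and for 2 with TNFR2 KO higher (36.4%). The members had a median of -0.072, beside -0.003 for all genes, whose quartiles were -0.29 and 0.18. Cish and Socs1 stood at the 19.4th and 19.8th percentile of all log2-fold changes. Shares of 8 genes this near the background are not a result about the family as a whole.

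Socs3 (chromosome 11, 117966079 to 117970047, minus strand) encodes an inhibitor of receptors of the gp130 group and their JAK kinases. It was at 110.8 and 119.0 CPM in wild-type and at 115.8 and 111.9 CPM in TNFR2 KO. Both TNFR2 KO values fell between the wild-type ones. The log2-fold change was -0.013 (standard error 0.0398, edgeR adjusted p = 0.819), and the 95% interval of -0.10 to 0.074 limits a difference to ratios between 0.933 and 1.05 under TMM scaling. The same-numbered pairs pointed opposite ways, at 0.064 and -0.09. Measured against Socs3 counts in the same library, Cish counts were at 0.514 and 0.483 in wild-type and at 0.341 and 0.379 in TNFR2 KO. The ratio of Socs1 to Socs3 counts moved likewise, from 0.617 and 0.568 to 0.412 and 0.454. Neither ratio overlapped between genotypes, and neither depends on scaling. The count ratio of Socs4 to Socs3, at 0.537 and 0.479 against 0.525 and 0.516, did overlap.

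Socs4 (chromosome 14, 47276931 to 47296102, plus strand) was at 59.4 and 57.0 CPM for wild-type against 60.8 and 57.8 CPM for TNFR2 KO, with overlap (log2-fold change 0.027, standard error 0.0453, edgeR adjusted p = 0.657). Socs5 (chromosome 17, 87107679 to 87137839, plus strand) was at 16.0 and 15.7 CPM against 16.2 and 16.2 CPM, without overlap (0.033, standard error 0.0768, edgeR adjusted p = 0.759). SOCS4 and SOCS5 are close relatives with long N-terminal regions, and both have been tied to the EGF receptor. Their log2-fold changes turned to -0.033 and -0.028 with library size alone as scaling, and were negative as well with scaling on NK cell genes.

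Socs6 and Socs7, the remaining pair, are linked to receptor tyrosine kinases and insulin signalling more than to JAK kinases. Socs6 (chromosome 18, 88665224 to 88927481, minus strand) was at 19.7 and 19.4 CPM for wild-type against 18.0 and 17.7 CPM for TNFR2 KO. These did not overlap, but the log2-fold change of -0.13 (standard error 0.0690, 95% interval -0.28 to 0.019) missed the threshold, at an edgeR adjusted p of 0.136. Scaling on library size alone gave -0.19 and an adjusted p of 0.036. Socs7 (chromosome 11, 97362551 to 97398542, plus strand) was at 41.5 and 41.7 CPM against 44.4 and 42.6 CPM, again without overlap. Its log2-fold change was 0.066 (standard error 0.0484, 95% interval -0.039 to 0.17, edgeR adjusted p = 0.283), and -0.74 with scaling on NK cell genes.

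**Figure D3:**
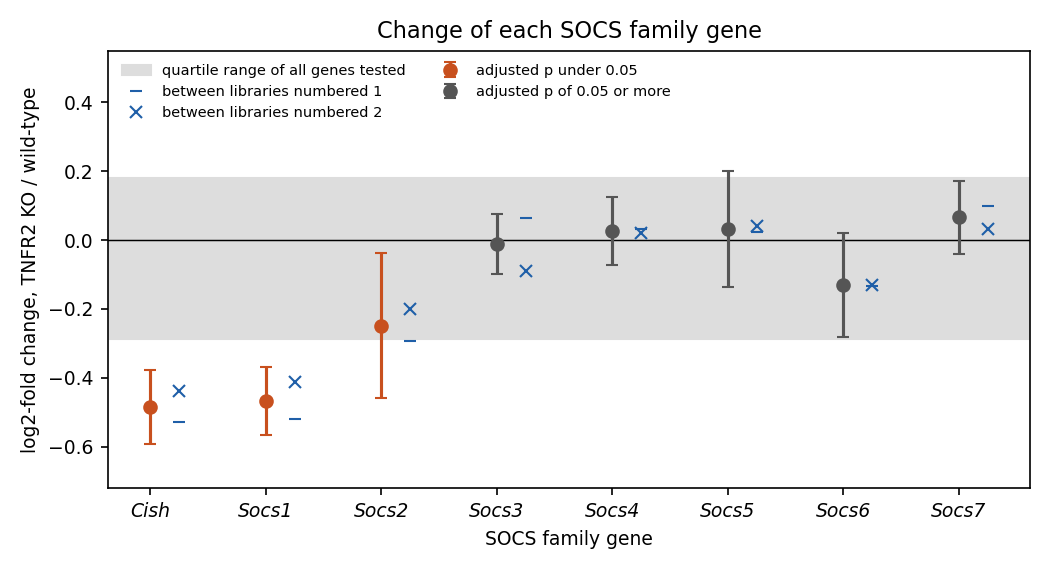
Log2-fold change of each SOCS family gene, TNFR2 KO over wild-type (circles, with 95% intervals from edgeR), and the same between libraries numbered 1 (dash) and numbered 2 (cross), over a grey band between the quartiles of all genes tested. Cish and Socs1 lay at -0.49 and -0.47, below the band whose lower edge was -0.29, Socs2 lay inside it, and the intervals of Socs3 to Socs7 crossed 0.

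How libraries are scaled decides what counts as no change. TMM assumes that most genes do not change, and all genes then had a median of -0.003. Scaling on 44 NK cell genes moved that median to -0.81, and with it all 8 members were called lower, from -0.74 for Socs7 to -1.29 for Cish. A change of scaling shifts all genes by nearly the same amount. Values relative to the median of all genes are therefore kept by construction. Under NK cell scaling they were -0.48 for Cish, -0.46 for Socs1, -0.011 for Socs3 and 0.069 for Socs7. For the same reason the difference of Cish and Socs1 from Socs3 does not depend on the scaling, whereas a value near 0 for Socs3 does.

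**Figure D4:**
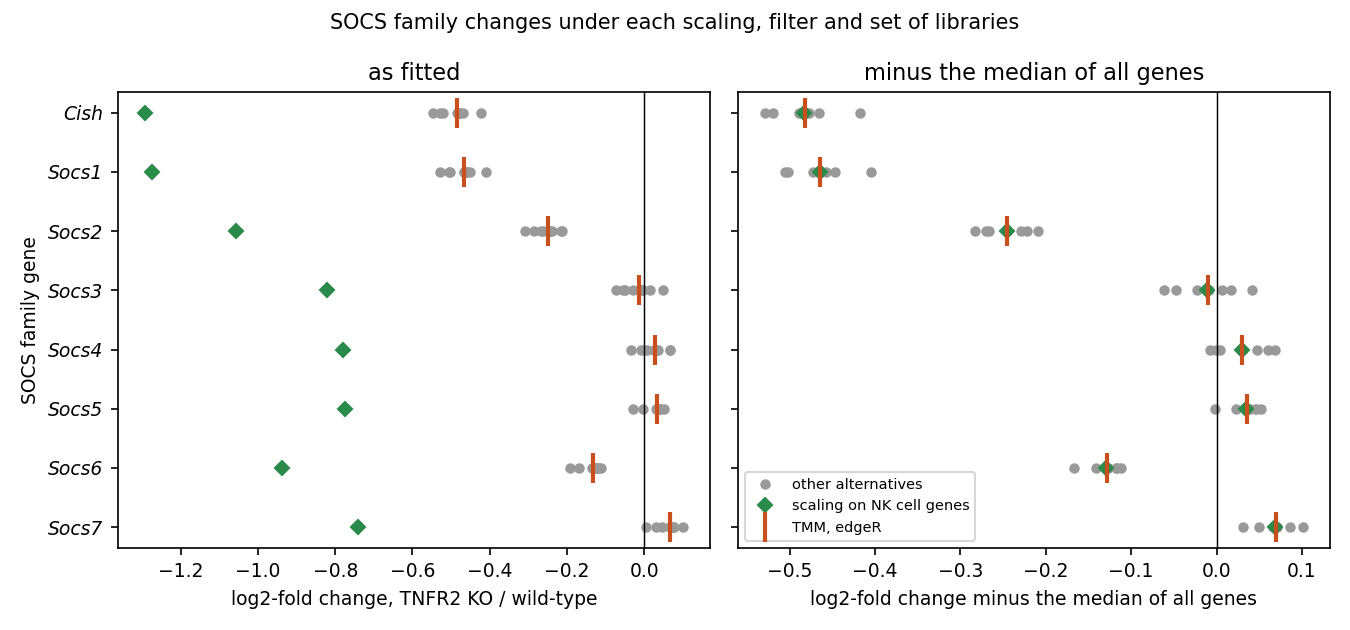
Log2-fold change of each SOCS family gene, TNFR2 KO over wild-type, under TMM scaling with edgeR (orange bars), scaling on NK cell genes (green diamonds) and the other alternatives (grey points), as fitted (left) and minus the median of all genes (right). NK cell scaling took all members below 0, from -0.74 to -1.29. After the median was taken off the diamonds lay on the bars by construction, as scaling shifts all genes alike.

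The genes whose pattern over the 4 libraries was most like that of Cish, among 4250 genes of similar level, were Atp8a1, Def8 and Znrf1. Atp8a1, a phospholipid flippase, was at 70.3 and 70.6 CPM in wild-type and at 49.0 and 52.3 CPM in TNFR2 KO, a Euclidean distance of 0.00914 on the centred log2(CPM + 1) scale. Def8 and Znrf1 had distances of 0.0231 and 0.0241. For Socs7, the member with the largest positive log2-fold change, they were Mfsd14b, Zfp407 and Ifi27 among 4266 genes, at distances of 0.00868, 0.0123 and 0.0123. With 4 libraries such likeness is a description of these profiles.

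Of 22 cytokine ligands listed that signal through JAK and STAT, 15 had enough counts to be tested, 7 of which were lower and 1 higher, against 26.2% and 24.2% of all genes. Ifng, the interferon of activated NK cells and the gene with the highest CPM of the list, was at 187.2 and 187.9 CPM for wild-type against 190.8 and 189.2 CPM for TNFR2 KO (log2-fold change 0.019, edgeR adjusted p = 0.601). Il10, the higher one, rose from 33.0 and 32.2 to 47.3 and 45.2 CPM relative to all genes. Il6, Il27 and Ebi3, which are largely products of myeloid cells, had log2-fold changes of -3.20, -2.92 and -1.97 and were at 10.9 CPM or less in every library. The list's median was -0.46, in a comparison whose myeloid marker sums fell as well. A link between these falls was not tested.

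Receptor subunits listed here as lymphoid moved both ways, and most of those listed as myeloid and growth factor subunits were lower. Of 18 lymphoid subunits, 6 were lower, 8 higher and 4 not called, with a median of 0.055 (26.2% and 24.2% of all genes were lower and higher). Il2rb, the chain shared by the IL-2 and IL-15 receptors and a known target of CIS, was at 2582 and 2579 CPM for wild-type against 3476 and 3518 CPM for TNFR2 KO. Its log2-fold change was 0.44 (standard error 0.0183, edgeR adjusted p = 1.06e-09) under TMM, and below 0 with scaling on NK cell genes, where it was 0.44 above the median of all genes. Il2ra, which encodes the IL-2 receptor chain CD25, was lower, at 162.6 and 150.6 CPM for wild-type against 131.2 and 129.5 CPM for TNFR2 KO. The log2-fold change of Il2ra was -0.26 (edgeR adjusted p = 9.2e-05). Ifngr2, the signalling chain of the interferon gamma receptor, fell from 25.1 and 24.1 to 3.59 and 3.65 CPM (log2-fold change -2.76, edgeR adjusted p = 1.79e-10). Whether that fall came with the fall of the macrophage or monocyte markers was not tested. Ifngr1 rose by 0.56 relative to all genes. Il7r fell from 7.04 and 6.83 to 2.30 and 2.81 CPM. Of 16 myeloid and growth factor subunits 11 were tested, 10 of them lower and 1 higher, with a median of -2.63. Csf2rb, the shared chain of the GM-CSF, IL-3 and IL-5 receptors, stood at 234.5 CPM in each wild-type library and at 17.6 CPM in each TNFR2 KO library (log2-fold change -3.74, edgeR adjusted p = 3.88e-15). Csf2rb2 and Csf3r were lower as well, at -4.05 and -2.63. The higher one was Crlf2, the TSLP receptor chain, at 0.53. The macrophage or monocyte markers had a median of -2.88, and single genes of this receptor list ran from -4.05 to 0.53. Whether the falls of these receptors came with those of the markers was not tested.

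The kinases and STATs moved in both directions, beside 26.2% of all genes tested called lower and 24.2% higher. Of the JAK kinases, with a median of 0.28, Jak1, Jak3 and Tyk2 were higher relative to all genes, by 0.40, 0.31 and 0.25, and Jak2 was lower, at -0.19. Jak1, the partner of Il2rb, was at 807.9 and 795.8 CPM for wild-type against 1045 and 1071 CPM for TNFR2 KO (edgeR adjusted p = 2.33e-08). Among the STATs, Stat2, which works in the response to type I interferon, fell from 149.1 and 150.6 to 97.4 and 96.5 CPM. Its log2-fold change was -0.63 (edgeR adjusted p = 6.25e-09), and a link to the falls of Cish and Socs1 was not tested. Stat5a and Stat5b, which carry the IL-2 and IL-15 signal to Cish, were at -0.12 and -0.14. Stat4, the factor activated by IL-12, was higher at 0.51 and Stat6 at 0.16, again relative to all genes, while Stat3 at 0.031 did not pass (edgeR adjusted p = 0.333).

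Other genes that STATs are known to switch on moved in both directions. Among 19 such targets, 6 were lower, 5 higher and 8 not called, with a median of 0.019, beside 26.2% lower and 24.2% higher of all genes. The interferon-induced Gbp2, Cxcl10 and Isg15 fell most, Gbp2 from 828.6 and 812.7 to 224.3 and 220.8 CPM, with log2-fold changes of -1.88, -2.94 and -1.06 (edgeR adjusted p = 3.48e-14, 2.97e-13 and 1.46e-09). Furin, a protease gene with a high CPM, was at -0.62, Myc at -0.50 and Irf1, an interferon-induced factor, at -0.30. Higher relative to all genes were Bcl2 at 0.79, Il18rap at 0.42, Irf9 at 0.19, Pim1 at 0.15 and Ccnd2 at 0.15. Myeloid cells also express Gbp2, Cxcl10 and Isg15, and the markers of such cells fell in the same libraries. Whether the falls of these genes came with those of the markers was not tested.

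Of the 10 genes of the ubiquitin ligases that the SOCS box recruits, 4 were lower, 3 higher relative to all genes and 3 not called. All lay between -0.16 and 0.33, with a median of 0.047. Over all genes tested, 26.2% were lower and 24.2% higher. Elob, which binds the SOCS box, was at 116.6 and 116.5 CPM for wild-type against 133.6 and 134.2 CPM for TNFR2 KO (log2-fold change 0.20, edgeR adjusted p = 1.72e-04), and Eloc at 0.082 was not called. Cul5, the scaffold of the ligase, was at -0.15, and its ring protein Rnf7 at 0.013 was not called. Arih2, a ligase that works with cullin 5, had the largest rise relative to all genes, from 76.6 and 78.4 to 98.2 and 96.0 CPM, and Ube2m, which helps to activate the cullins, was at -0.12. Of 27 other SOCS box genes 16 were tested, 2 of them lower and 5 higher, beside the same shares of all genes, with a median of 0.070. Asb2 fell from 64.8 and 63.8 to 32.3 and 37.7 CPM (log2-fold change -0.88, edgeR adjusted p = 1.6e-07), a larger change than that of any SOCS family gene, and Wsb1 was at -0.13. Spsb3 was higher, at 0.36 relative to all genes.

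Brakes of other classes were split. Of 11 genes, 3 were lower, 3 higher and 5 not called, with a median of -0.058. These counts are near the shares of all genes tested, 26.2% lower and 24.2% higher. Ptpn6, which encodes the phosphatase SHP-1, was at 259.1 and 267.3 CPM for wild-type against 180.4 and 176.7 CPM for TNFR2 KO (log2-fold change -0.56, edgeR adjusted p = 8.58e-09). Ptpn1 and Sh2b3 were lower as well, at -0.36 and -0.34. Ptprc, Pias3 and Ptpn2 were higher relative to all genes, at 0.50, 0.41 and 0.16. Ptprc encodes CD45 itself, the protein whose alleles defined the sort. Usp18, the brake on the interferon receptor, was at -0.058 and was not called.

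Feedback genes of NF-kB, the pathway downstream of TNFR2, are given for comparison. Of 16 genes, 9 were lower, 3 higher and 4 not called, with a median of -0.26, where 26.2% of all genes were lower and 24.2% higher. Nfkb1, a subunit of the factor, was at 402.0 and 399.3 CPM against 399.9 and 401.8 CPM (edgeR adjusted p = 0.983). Tnip3, an inhibitor of the pathway, fell from 3.90 and 4.69 CPM to 0.724 and 1.06 CPM (log2-fold change -2.28). Nfkb2, Relb, Nfkbie and Birc3 were called lower at -0.59, -0.51, -0.47 and -0.45. Nfkbia, the main inhibitor, was at -0.32 and Tnfaip3, which encodes A20, at 0.11. The 3 higher genes lay between 0.11 and 0.22.

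**Figure D5:**
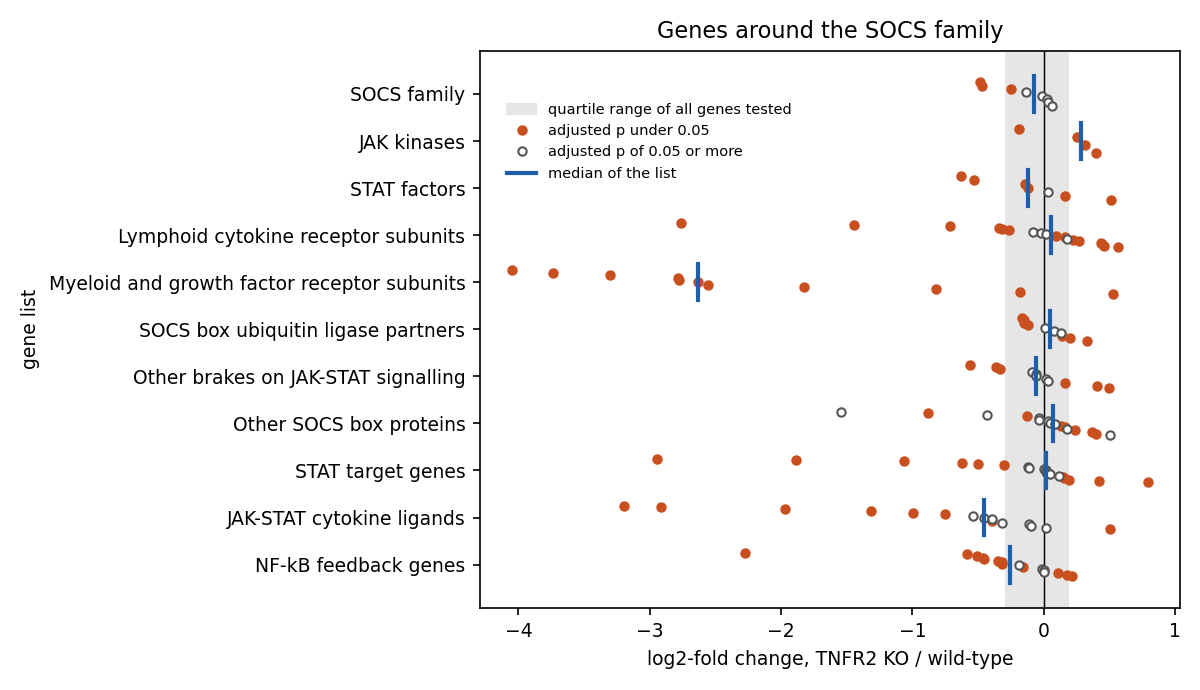
Log2-fold change (x axis, TNFR2 KO over wild-type, TMM scaling) of each tested gene of the SOCS family and 10 related lists, orange where the edgeR adjusted p was under 0.05 and open otherwise, with the list median in blue and the quartile range of all genes in grey. The myeloid and growth factor receptors had a median of -2.63, and the SOCS box partners lay between -0.16 and 0.33, while under scaling on NK cell genes all points would shift by about -0.81.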

How the data were processed

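Gene expression was measured by poly-A selected, stranded, paired-end RNA-seq in 4 libraries. The authors trimmed reads with Trimmomatic 1.4, assigned them to mm10 transcripts with kallisto 0.46.1, and deposited estimated counts (expected counts) per gene symbol, unscaled. The transcript annotation and strand setting are not given in the sources used here. Counts were rounded. A row with no gene name, 0.0559% to 0.0728% of each library, was left out. Genes kept by filterByExpr (13822, 14890 being at 0 throughout) were scaled by TMM and tested with edgeR 4.0.16 in R 4.3.3 (quasi-likelihood, genotype as the single term, Benjamini-Hochberg). Calls were an adjusted p under 0.05, and separately a log2-fold change over 1. CPM is the TMM-scaled count. The steps were tested on simulated data. The smallest two-sided p that an exact permutation test of 2 against 2 libraries allows is 0.333, and none was used. Duplicates differed by more than sampling noise (chi-square per gene 3.29 and 3.53, where sampling gives 1). Counting errors cover counting alone.

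Per the labels' descriptions, wild-type and TNFR2 KO libraries of the same number share a pooled spleen sample, which pairs them, and whether the duplicates came from different mice is not stated. Their deviations correlated at 0.024.

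The members and lists were chosen with earlier results of these data known. Named genes were all members, Tnfrsf1b, the gene with the highest CPM of each list, the pathway genes with the smallest adjusted p, and the genes most like the members with the largest change in each direction. Others (Il10, Crlf2, Il2ra, Ifngr1, Jak2, Tyk2, Stat3, Stat4, Stat5a, Stat5b, Stat6, Myc, Irf1, Bcl2, Il18rap, Irf9, Pim1, Ccnd2, Eloc, Cul5, Rnf7, Ptpn1, Sh2b3, Pias3, Ptpn2, Usp18, Nfkbia, Tnfaip3, Nfkb2, Relb, Nfkbie, Birc3) were named after their values were seen.

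Positions, lengths and shared 31-base stretches come from GENCODE M21 on GRCm38, standing in for the annotation of the authors, and promoters from RefSeq. Alternatives were the DESeq2 1.42.0 test, DESeq2 size factors, library size alone, upper-quartile scaling, scaling on 44 NK cell genes, the replicate block, no filter, a minimum mean of 10 CPM, and each library left out. Plots used matplotlib 3.10.9.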

Additional observations from a re-analysis of the deposited data

How the results depend on the processing

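With 2 libraries per genotype from 1 experiment, the p-values compare these libraries. Depth limits Socs2 most, at up to 5.44% counting error. Across the 12 alternatives Cish and Socs1 stayed lower and past the threshold, at -0.53 to -0.42 and -0.51 to -0.41 with each library left out. Tnfrsf1b did as well, at -2.27 to -2.18. Socs2 kept its direction but lost its call with DESeq2 size factors (-0.25, adjusted p = 0.0511), upper-quartile scaling (-0.24, adjusted p = 0.0568), the DESeq2 test (-0.25, adjusted p = 0.197), no filter (-0.24, adjusted p = 0.0805) and each library left out (-0.27 to -0.21), which left 2 members called lower in each case. Fewer libraries were in the leave-one-out fits, and for the other settings the cause was not tested.

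Scaling on NK cell genes gave -0.82 for Socs3, -0.78 for Socs4, -0.77 for Socs5, -0.94 for Socs6 and -0.74 for Socs7, with 8 members called lower and 3 of them past 1 log2 unit (Cish at -1.29, Socs1 at -1.27 and Socs2 at -1.06). It called 12056 genes lower and 133 higher, 4007 and 28 of them past 1 log2 unit, since its median of all genes was -0.81. Library size alone gave -0.033 for Socs4, -0.028 for Socs5 and -0.19 for Socs6 (adjusted p = 0.036). A mean of at least 10 CPM gave -0.0087 for Socs4 and -0.0035 for Socs5, and left 424 genes lower and 56 higher past 1 log2 unit, with 8765 genes tested. Leaving out each library gave -0.056 to 0.048 for Socs3 (0.048 without wild-type replicate 2 and 0.016 without TNFR2 KO replicate 2), -0.0011 to 0.068 for Socs4 (-0.0011 without TNFR2 KO replicate 1), 0.030 to 0.052 for Socs5, -0.13 to -0.11 for Socs6 and 0.045 to 0.10 for Socs7. It gave 2959 to 3437 genes lower and 2946 to 3272 higher, 1431 to 1659 and 208 to 219 of them past 1 log2 unit.

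The paired fit, with the replicate block, called the same 3 members, with Cish at -0.48, Socs1 at -0.47 and Socs2 at -0.25 (adjusted p = 0.0423), and 7088 genes in place of 6965. It changed no other call among the members.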
